A study of Rattus norvegicus with 6 samples.

Results

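The 30 genes described here encode enzymes and cofactor proteins that degrade the branched-chain amino acids leucine, isoleucine and valine, carry propionate into the citrate cycle, and interconvert ketone bodies. They were chosen by name, and all 30 were found among the 20104 genes of the count and FPKM tables of a rat liver series. RNA sequencing was done on liver collected on day 14 of repair after trauma, and 3 samples came from wounds covered with AKOC, 3 from wounds covered with Quik-clot. The labels leave AKOC unexpanded and the title names kaolin scales anchored on cotton, and Quik-clot is the haemostatic dressing that served as control. The comparison was made to evaluate chronic inflammation under the dressings. No strain, sex or age of the rats and no hour of collection is given, no uninjured liver is among the samples, and nothing says whether each sample came from a separate animal.

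Branched-chain amino acids first lose their amino group to a transaminase (BCAT), and the resulting keto acids are then committed to breakdown by the mitochondrial branched-chain keto acid dehydrogenase complex (BCKDH), which a kinase switches off and a phosphatase switches on. Liver is known for low transaminase and high BCKDH activity, so that it burns keto acids released by other tissues. Valine and isoleucine end partly as propionyl-CoA, which a biotin enzyme and a cobalamin enzyme convert to succinyl-CoA. Liver also makes ketone bodies for export but uses few of them, because hepatocytes have little of the transferase that activates acetoacetate.

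Library totals lay between 40402312 and 41455378 counts. The scaling factors of the trimmed mean of M values (TMM), which correct each total for composition, were 1.08, 0.904 and 0.949 in AKOC replicates 1, 2 and 3 and 1.12, 1.07 and 0.902 in Quik-clot replicates 1, 2 and 3. The choice of scaling bears on what follows. Quik-clot replicate 3 stood apart from the other libraries, with A2m, an acute phase protein, at 2403 CPM against 5.29 to 91.5 CPM elsewhere. In that library the 30 genes took 0.234% of all counts and mitochondrially encoded transcripts 6.12%, while the AKOC libraries had 0.329% to 0.368% and 8.23% to 9.18%, and the other Quik-clot libraries 0.342% to 0.352% and 8.32% to 10.97%. Results are therefore also given without it. The hepatocyte marker Alb stood between 62634 and 122898 CPM in all 6 libraries. Levels are in CPM, counts relative to the TMM-scaled library total, unless FPKM (which also divides by gene length) is named, and mean ± SD is over 3 libraries per dressing.

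None of these genes passed the adjustment over all genes. Of the 30, 29 had enough counts to be tested, and edgeR's quasi-likelihood test called 0 at a Benjamini-Hochberg adjusted p under 0.05 (lowest adjusted p = 0.305, for Bckdhb). The same test called 0 of the 13872 genes tested (0%). DESeq2 called 0 of the 29 where it called 2.02% of all genes it adjusted, and limma-voom called 0 of the 29 and 0 of all genes. At an unadjusted p under 0.05 edgeR gave 11 of the 29 with a higher level under AKOC, where 6.78% of all tested genes did so, and 0 with a lower level, where 5.69% did. Log2 fold changes, AKOC over Quik-clot, were positive for 23 genes and negative for 6, with a median of 0.25 against -0.01 over all genes tested. In 15 of the 29 every AKOC library lay above every Quik-clot library, against 9.53% of all tested genes, and in 0 did every AKOC library lie below, against 8.84%.

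That picture depended on the scaling. With library totals in place of TMM factors, 21 of the 29 fold changes remained positive, and the median was 0.18 against -0.09 over all genes. But 2 genes were higher and 1 lower at an unadjusted p under 0.05, against 3.26% and 5.41% of all tested genes. The dressings then did not overlap in 3 genes, AKOC above Quik-clot in each, against 4.95% of all tested genes. These 3, Bdh1, Bckdhb and Pccb, did not overlap under either scaling. Without Quik-clot replicate 3 and with TMM factors, 5 genes were higher at an unadjusted p under 0.05, against 5.27% of the genes tested in that fit, and the median was 0.22. Those 5 were Bckdhb, Ivd, Pccb and Bdh1, which were among the 11, and Acad8, which was not. Over the 6 fits that each left out 1 library, Bckdhb and Pccb had an unadjusted p under 0.05 in all 6, Bdh1 in 5, Ivd in 4 and the other 25 genes in 3 or fewer. The deposited GO annotation places 29 of the 30 genes in the mitochondrion. Among the other 1399 tested genes with such a term, 13.8% were higher at an unadjusted p under 0.05 with TMM factors, and their median log2 fold change was 0.09.

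**Figure D1:**
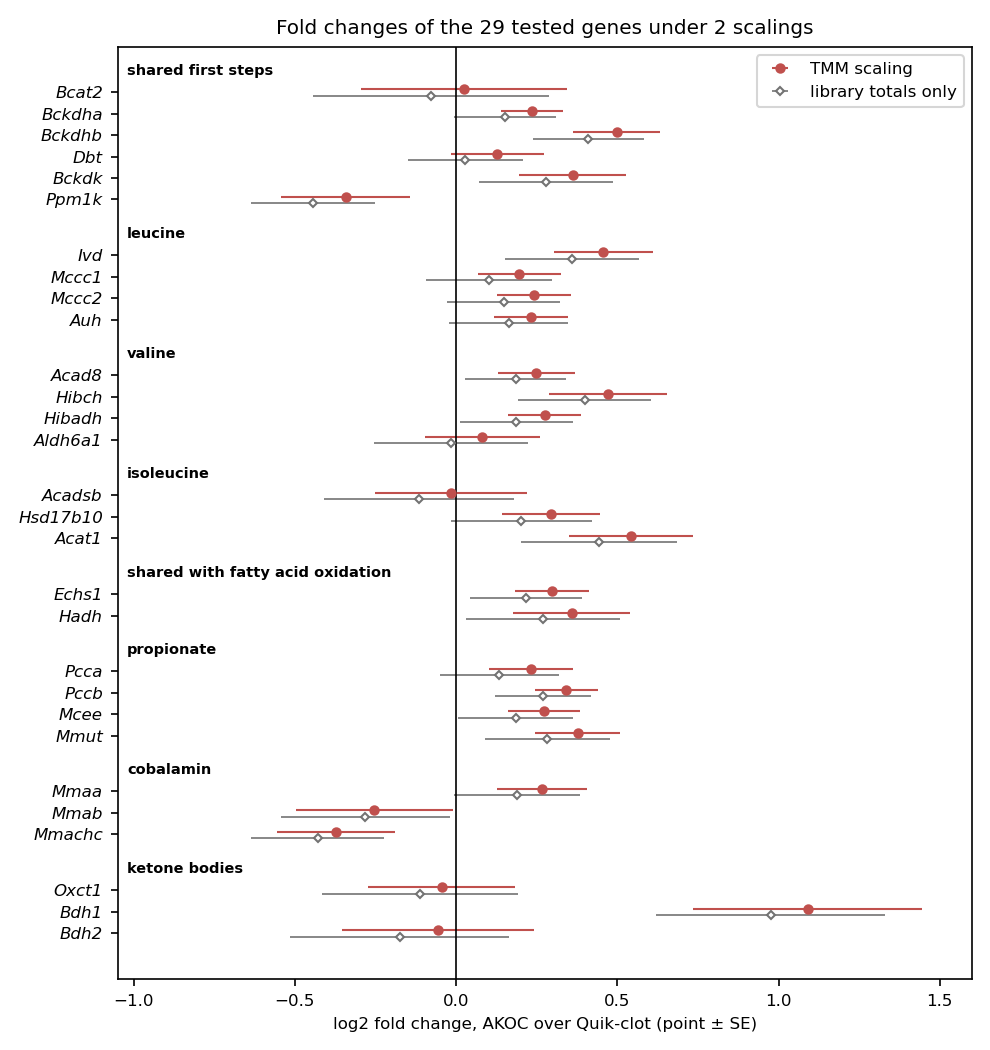
Log2 fold change of each tested gene, AKOC over Quik-clot, with its SE as the bar. Filled circles use TMM scaling and open diamonds library totals only. Most points lie right of 0 under both scalings, Bdh1 lies farthest to the right at 1.09, and Ppm1k, Mmab and Mmachc lie to the left.

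The sequences before the start sites of the 3 genes that separated the dressings under both scalings are shown, taken from RefSeq windows of the GRCr8 assembly, where 27 of the 30 genes had an entry. Each gives the 250 bases up to the start, 5′ to 3′ in the gene's own direction. Capitals mark a GC box (GGGCGG) or a CCAAT box (CCAAT) on either strand.
Bdh1 (GRCr8, chr11:82842637-82842886, minus strand): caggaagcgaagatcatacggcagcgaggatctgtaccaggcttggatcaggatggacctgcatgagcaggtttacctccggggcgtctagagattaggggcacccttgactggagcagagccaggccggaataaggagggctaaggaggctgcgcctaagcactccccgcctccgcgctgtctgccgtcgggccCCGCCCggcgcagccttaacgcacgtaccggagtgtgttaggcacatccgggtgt
Bckdhb (GRCr8, chr8:93725027-93725276, plus strand): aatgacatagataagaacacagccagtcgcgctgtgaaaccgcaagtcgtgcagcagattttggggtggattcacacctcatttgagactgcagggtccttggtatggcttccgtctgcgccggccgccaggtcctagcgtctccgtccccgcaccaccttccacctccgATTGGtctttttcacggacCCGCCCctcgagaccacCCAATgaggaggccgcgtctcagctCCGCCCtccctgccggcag
Pccb (GRCr8, chr8:110520187-110520436, minus strand): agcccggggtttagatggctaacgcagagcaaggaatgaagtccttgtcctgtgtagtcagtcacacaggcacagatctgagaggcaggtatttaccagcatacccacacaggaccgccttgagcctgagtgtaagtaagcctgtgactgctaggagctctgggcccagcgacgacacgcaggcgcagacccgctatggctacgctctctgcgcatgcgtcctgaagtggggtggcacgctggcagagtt
The Bckdhb window held 2 GC boxes and 2 CCAAT boxes, the Bdh1 window a single GC box, and the Pccb window neither. Over the 27 genes, 20 had a GC box within these 250 bases and 12 a CCAAT box, where 30.5% and 34% of all 33469 windows did. Motif counts for the 27 are per gene, over any of its windows, while the shares are per window and not limited to genes tested here. A difference between them therefore cannot be read as particular to these pathways. The GC content had a median of 59.4% over the 28 windows of these genes and 51.2% for all. No E-box (CACGTG) occurred in the windows of the 27 genes (5.59% of all windows), and the TATA box (TATAAA) occurred in 1 (12.9%). The ERR half-site (AAGGTCA) occurred in 1 (3.99%), the NRF1 core (GCGCA and GCGC with 1 base between) in 2 (3.75%), and the CRE (TGACGTCA, 1.59%) and the DR1 element (AGGTCA repeated with 1 base between, 0.0508%) in 0. The motifs were searched on both strands and do not overlap with each other except that the ERR half-site shares AGGTCA with DR1.

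The shared first steps gave the gene with the smallest p of the 30. Of their 6 tested genes, 2 were higher at an unadjusted p under 0.05 (6.78% of all tested genes), and with library totals 1 was higher and 1 lower (3.26% and 5.41%). Bckdhb, which encodes the beta subunit of the E1 decarboxylase of BCKDH, stood at 88.3, 109 and 93.2 CPM in the AKOC libraries and 62.5, 78.8 and 64.4 CPM in the Quik-clot libraries. All AKOC libraries were above all Quik-clot libraries, and the gap between the closest pair was of the size of the SD in either dressing. The mean was 96.9 ± 10.8 CPM under AKOC and 68.6 ± 8.88 CPM under Quik-clot, a log2 fold change of 0.50 ± 0.14 (SE; edgeR unadjusted p = 0.00746, adjusted p = 0.305). With library totals it was 0.41 (unadjusted p = 0.0399), and without Quik-clot replicate 3 it was 0.46 (unadjusted p = 0.0252). Leaving out each library in turn gave 0.40 to 0.61.

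Its partner Bckdha, the alpha subunit of the same decarboxylase, had 88.9, 98.4 and 92.4 CPM under AKOC and 79.5, 81.9 and 76.4 CPM under Quik-clot. These did not overlap, but the difference was smaller, with a log2 fold change of 0.24 ± 0.09 (edgeR unadjusted p = 0.0416, adjusted p = 0.391). It was 0.15 (unadjusted p = 0.363) with library totals and 0.21 (unadjusted p = 0.109) without Quik-clot replicate 3. Dbt, the E2 core of the complex that transfers the acyl group to coenzyme A, averaged 84.5 ± 12.9 CPM under AKOC and 77.3 ± 7.76 CPM under Quik-clot and overlapped, at a log2 fold change of 0.13 ± 0.14. That value was 0.028 with library totals, and it ran from 0.025 when AKOC replicate 2 was left out to 0.24 when AKOC replicate 1 was. Dld, the E3 subunit that BCKDH shares with the pyruvate and oxoglutarate dehydrogenases and that is not among the 30, had 163, 181 and 200 CPM under AKOC and 116, 151 and 108 CPM under Quik-clot. Its log2 fold change was 0.54 ± 0.16 (edgeR unadjusted p = 0.0104, adjusted p = 0.312), and 0.44 (unadjusted p = 0.0515) with library totals.

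The 2 regulators of BCKDH had fold changes of opposite sign. Bckdk, the kinase that inactivates the complex, stood at 13.9, 14.3 and 18.5 CPM under AKOC and 10.8, 14.0 and 11.5 CPM under Quik-clot. AKOC replicate 3 was the highest, and AKOC replicate 1 lay within the Quik-clot range. The log2 fold change was 0.36 ± 0.17 (edgeR unadjusted p = 0.0642, adjusted p = 0.418), and ran from 0.22 without AKOC replicate 3 to 0.48 without Quik-clot replicate 2. Ppm1k, the phosphatase that reactivates the complex, stood at 82.0, 139 and 105 CPM under AKOC and 153, 121 and 139 CPM under Quik-clot. AKOC replicates 1 and 3 were below all Quik-clot libraries, while AKOC replicate 2 (138.9 CPM) lay between Quik-clot replicate 2 and Quik-clot replicate 3 (139.1 CPM). Its log2 fold change was -0.34 ± 0.20 (edgeR unadjusted p = 0.128, adjusted p = 0.504), and -0.44 with library totals (unadjusted p = 0.0469). It ran from -0.57 (unadjusted p = 0.0168) without AKOC replicate 2 to -0.18 (unadjusted p = 0.351) without AKOC replicate 1.

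The transaminases were barely detected. Bcat2, the mitochondrial enzyme found in most tissues other than hepatocytes, stood at 1.73, 2.32 and 1.41 CPM under AKOC and 1.63, 2.43 and 1.297 CPM under Quik-clot, with a log2 fold change of 0.02 ± 0.32 that was negative with library totals (-0.078). Bcat1, the cytosolic enzyme, had 9, 20 and 2 counts under AKOC and 1, 17 and 7 counts under Quik-clot and was below the filter on low counts, so it was not tested. Both dressings spanned a wide range of Bcat1 counts, and these ranges overlapped.

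**Figure D2:**
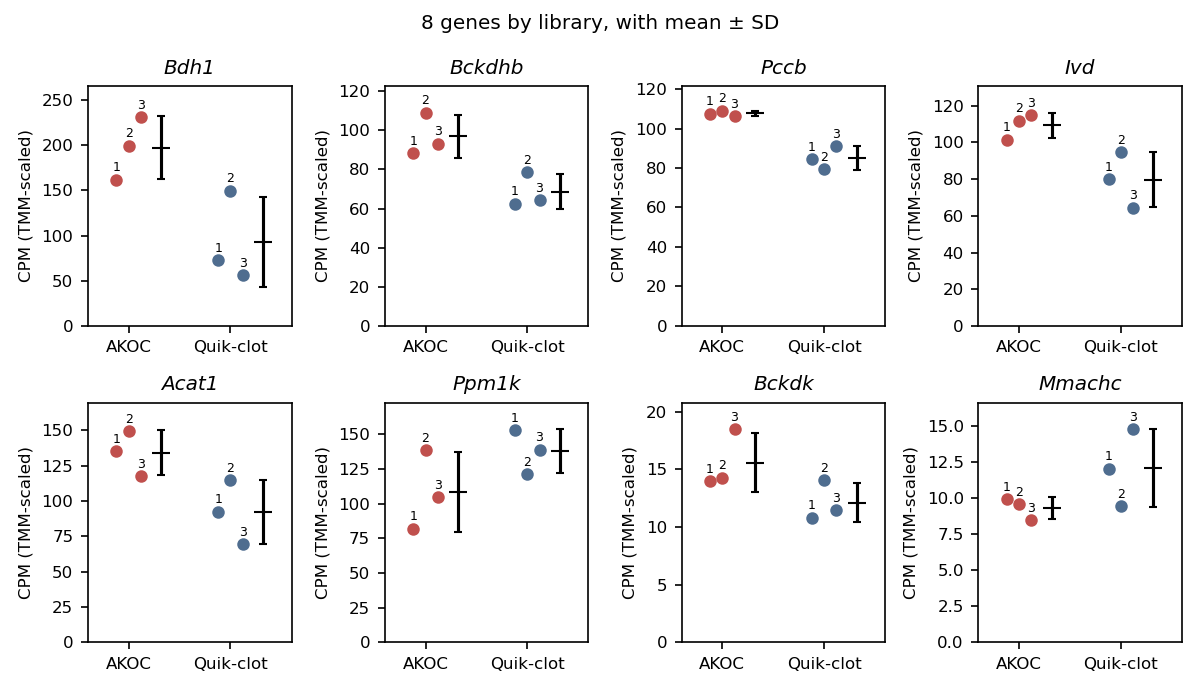
CPM after TMM scaling of 8 genes, each library as a point labelled with its replicate number, AKOC left of Quik-clot, with mean ± SD (3 libraries) as a bar; the axes start at 0. AKOC points lie above all Quik-clot points for Bdh1, Bckdhb, Pccb, Ivd and Acat1, and overlap with them for Ppm1k, Bckdk and Mmachc.

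Of the leucine branch all 4 genes had positive fold changes under both scalings, between 0.20 and 0.46 with TMM factors, and 1 of 4 was higher at an unadjusted p under 0.05 (6.78% of all tested genes). With library totals 0 of 4 were (3.26%). Ivd, isovaleryl-CoA dehydrogenase, the first enzyme specific to leucine, stood at 102, 112 and 115 CPM under AKOC and 79.8, 94.7 and 64.5 CPM under Quik-clot. The dressings did not overlap, and the Quik-clot libraries were spread more widely, with an SD of 15.1 CPM against 6.91 CPM under AKOC. The log2 fold change was 0.46 ± 0.15 (edgeR unadjusted p = 0.0192, adjusted p = 0.34). It was 0.36 (unadjusted p = 0.115) with library totals and between 0.33 (unadjusted p = 0.0428) without Quik-clot replicate 3 and 0.60 without Quik-clot replicate 2. Mccc1 and Mccc2, the biotin-carrying and the other subunit of methylcrotonyl-CoA carboxylase, had log2 fold changes of 0.20 ± 0.13 and 0.24 ± 0.11 and overlapped between dressings. Without Quik-clot replicate 3 these were 0.092 for Mccc1 and 0.17 for Mccc2. Auh, the methylglutaconyl-CoA hydratase that follows, averaged 44.9 ± 5.15 CPM under AKOC and 38.2 ± 1.68 CPM under Quik-clot. Its dressings did not overlap, but only by the small gap between 40.03 CPM in AKOC replicate 3 and 40.02 CPM in Quik-clot replicate 2. A log2 fold change of 0.23 ± 0.11 resulted, which ran from 0.14 without AKOC replicate 1 to 0.31 without AKOC replicate 3.

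In the valine branch all 4 fold changes were positive with TMM factors, and 2 of 4 genes were higher at an unadjusted p under 0.05 (6.78% of all tested genes). With library totals 3 of 4 fold changes were positive and 0 of 4 genes were higher at that threshold (3.26%). Hibch, which releases 3-hydroxyisobutyrate from coenzyme A, stood at 37.2, 37.1 and 39.7 CPM under AKOC and 20.6, 34.6 and 27.0 CPM under Quik-clot. The AKOC libraries were close together, and Quik-clot replicate 2 came near them. Its log2 fold change was 0.47 ± 0.18 (edgeR unadjusted p = 0.0363, adjusted p = 0.381). It was 0.40 (unadjusted p = 0.0855) with library totals and 0.46 (unadjusted p = 0.0727) without Quik-clot replicate 3. Without Quik-clot replicate 1 it was 0.30 (unadjusted p = 0.0741), and without Quik-clot replicate 2 it was 0.67.

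Hibadh, the next enzyme, a dehydrogenase of the free acid, averaged 279 ± 13.7 CPM under AKOC and 231 ± 15.1 CPM under Quik-clot without overlap, at 0.27 ± 0.11 (edgeR unadjusted p = 0.0444, adjusted p = 0.391). It was 0.19 (unadjusted p = 0.314) with library totals and 0.23 (unadjusted p = 0.123) without Quik-clot replicate 3. Acad8, isobutyryl-CoA dehydrogenase, had 34.2 ± 1.34 CPM under AKOC and 28.8 ± 3.55 CPM under Quik-clot, and a log2 fold change of 0.25 ± 0.12 that was 0.34 (unadjusted p = 0.0349) without Quik-clot replicate 3 and 0.16 (unadjusted p = 0.213) without Quik-clot replicate 1. Aldh6a1, methylmalonate semialdehyde dehydrogenase and the most abundant of the 30, stood at 873, 894 and 919 CPM under AKOC and 979, 860 and 701 CPM under Quik-clot. The Quik-clot libraries enclosed the AKOC libraries on both sides, and the log2 fold change was 0.08 ± 0.18 with TMM factors, -0.015 with library totals and -0.039 without Quik-clot replicate 3.

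The isoleucine branch held the second largest fold change of the 29, and 1 of its 3 genes was higher at an unadjusted p under 0.05 (6.78% of all tested genes; 0 of 3 with library totals, 3.26%). Acat1, the mitochondrial thiolase that ends isoleucine breakdown and also makes and splits acetoacetyl-CoA, stood at 135, 150 and 118 CPM under AKOC and 92.5, 115 and 69.4 CPM under Quik-clot. AKOC replicate 3 and Quik-clot replicate 2 were neighbours, and Quik-clot replicate 3 was lowest. The log2 fold change was 0.54 ± 0.19 (edgeR unadjusted p = 0.0252, adjusted p = 0.361), and 0.38 (unadjusted p = 0.0548) without Quik-clot replicate 3 and 0.44 (unadjusted p = 0.0988) with library totals. It was 0.73 without Quik-clot replicate 2. Hsd17b10, the dehydrogenase before it, which is also a subunit of mitochondrial RNase P, had 0.29 ± 0.15 and a narrow gap, 188 CPM in AKOC replicate 2 against 187 CPM in Quik-clot replicate 2. Without Quik-clot replicate 3 its log2 fold change was 0.16, and without Quik-clot replicate 2 it was 0.39. Acadsb, the short/branched chain acyl-CoA dehydrogenase that opens the branch, averaged 65.3 ± 9.22 CPM under AKOC and 66.1 ± 20.9 CPM under Quik-clot. The fold change, -0.02 ± 0.23 on the log2 scale, ran from -0.23 without Quik-clot replicate 3 to 0.24 without Quik-clot replicate 1.

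Echs1 and Hadh, a hydratase and a dehydrogenase that the branched-chain routes share with fatty acid oxidation, had 314 ± 12.7 and 263 ± 11.5 CPM under AKOC and 256 ± 17.7 and 205 ± 50.3 CPM under Quik-clot. Echs1 did not overlap and had a log2 fold change of 0.30 ± 0.11 (edgeR unadjusted p = 0.0349, adjusted p = 0.375). It was 0.22 (unadjusted p = 0.245) with library totals and 0.27 (unadjusted p = 0.088) without Quik-clot replicate 3. Hadh overlapped, since Quik-clot replicate 2 (261 CPM) lay above AKOC replicates 2 and 3 (257 and 256 CPM). Hadh had a log2 fold change of 0.36 ± 0.18, which was 0.21 without Quik-clot replicate 3 and 0.57 without Quik-clot replicate 2.

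All 4 enzymes of the propionate route had positive fold changes under both scalings, with a median of 0.31, and 3 of 4 were higher at an unadjusted p under 0.05 (6.78% of all tested genes). With library totals 0 of 4 were (3.26%), and without Quik-clot replicate 3 it was 1 of 4 (5.27%). Pccb, the beta subunit of propionyl-CoA carboxylase, stood at 108, 109 and 106 CPM under AKOC and 84.3, 79.3 and 91.2 CPM under Quik-clot. The AKOC libraries lay within an SD of 1.32 CPM, and Quik-clot replicate 3 was here the highest of its dressing. The log2 fold change was 0.34 ± 0.10 (edgeR unadjusted p = 0.00979, adjusted p = 0.312), 0.40 (unadjusted p = 0.0106) without Quik-clot replicate 3, and 0.27 (unadjusted p = 0.103) with library totals. Leaving out each library in turn gave 0.29 to 0.40. Pcca, the biotin-carrying alpha subunit, averaged 60.3 ± 6.96 CPM under AKOC and 51.4 ± 5.63 CPM under Quik-clot and overlapped. The log2 fold change of 0.23 ± 0.13 was 0.15 without Quik-clot replicate 3 and lowest, at 0.13, without AKOC replicate 2.

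Mmut, the cobalamin-dependent methylmalonyl-CoA mutase, stood at 206, 223 and 227 CPM under AKOC and 173, 189 and 143 CPM under Quik-clot. The dressings did not overlap, and the log2 fold change was 0.38 ± 0.13 (edgeR unadjusted p = 0.0245, adjusted p = 0.361). It was 0.28 (unadjusted p = 0.179) with library totals and 0.27 (unadjusted p = 0.0675) without Quik-clot replicate 3. Mcee, the epimerase between carboxylase and mutase, had 23.2, 26.3 and 22.9 CPM under AKOC and 21.1, 20.1 and 18.6 CPM under Quik-clot, again without overlap. Its log2 fold change was 0.27 ± 0.11 (edgeR unadjusted p = 0.0437, adjusted p = 0.391), 0.18 (unadjusted p = 0.33) with library totals and 0.23 (unadjusted p = 0.131) without Quik-clot replicate 3.

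Genes that process the mutase's cofactor were mixed, with 1 of 3 fold changes positive and 0 at an unadjusted p under 0.05 in either direction (6.78% higher and 5.69% lower over all tested genes). Mmaa, the GTPase that delivers adenosylcobalamin and protects the mutase, averaged 10.8 ± 1.41 CPM under AKOC and 8.96 ± 0.200 CPM under Quik-clot. For Mmaa the log2 fold change of 0.27 ± 0.14 ran from 0.17 without AKOC replicate 2 to 0.37 without AKOC replicate 3. Mmachc, which acts early in cobalamin processing by removing the upper ligand in the cytosol, had 9.90, 9.58 and 8.47 CPM under AKOC and 12.01, 9.42 and 14.8 CPM under Quik-clot. Quik-clot replicate 2 lay among the AKOC libraries and the other Quik-clot libraries above them, and the log2 fold change was -0.37 ± 0.18 (edgeR unadjusted p = 0.0814, adjusted p = 0.441), or -0.20 without Quik-clot replicate 3 and -0.52 (unadjusted p = 0.0149) without Quik-clot replicate 2. Mmab, the adenosyltransferase, had 13.3, 7.93 and 10.1 CPM under AKOC and 10.1, 11.3 and 16.02 CPM under Quik-clot. It was highest in Quik-clot replicate 3, and its log2 fold change of -0.25 ± 0.24 was -0.030 without that library but -0.46 when AKOC replicate 1 was left out.

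The 3 ketone body genes had unlike fold changes, and 1 of them was higher at an unadjusted p under 0.05 under both scalings (6.78% and 3.26% of all tested genes). Bdh1, the mitochondrial 3-hydroxybutyrate dehydrogenase that interconverts acetoacetate and 3-hydroxybutyrate, had the largest fold change of the 29 tested. It stood at 162, 200 and 231 CPM under AKOC and 72.6, 149 and 56.1 CPM under Quik-clot. All AKOC libraries were above, but Quik-clot replicate 2 was more than 2 times as high as Quik-clot replicate 1 and close to AKOC replicate 1. The mean was 197 ± 34.5 CPM under AKOC and 92.7 ± 49.8 CPM under Quik-clot, a log2 fold change of 1.09 ± 0.35 (edgeR unadjusted p = 0.0172, adjusted p = 0.331). It was 0.98 (unadjusted p = 0.022) with library totals and 0.83 (unadjusted p = 0.0356) without Quik-clot replicate 3. Without Quik-clot replicate 1 it was 0.94 (unadjusted p = 0.0576), and without Quik-clot replicate 2 it was 1.62.

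Oxct1, the transferase that lets other tissues use ketone bodies, stood at 3.08, 2.38 and 2.24 CPM under AKOC and 2.37, 3.16 and 2.40 CPM under Quik-clot, a log2 fold change of -0.04 ± 0.23. Bdh2, a cytosolic relative of Bdh1, had 9.63, 11.2 and 8.58 CPM under AKOC and 15.3, 8.46 and 6.78 CPM under Quik-clot, at -0.06 ± 0.30. Both overlapped between dressings, and both fold changes took either sign as libraries were left out.

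**Figure D3:**
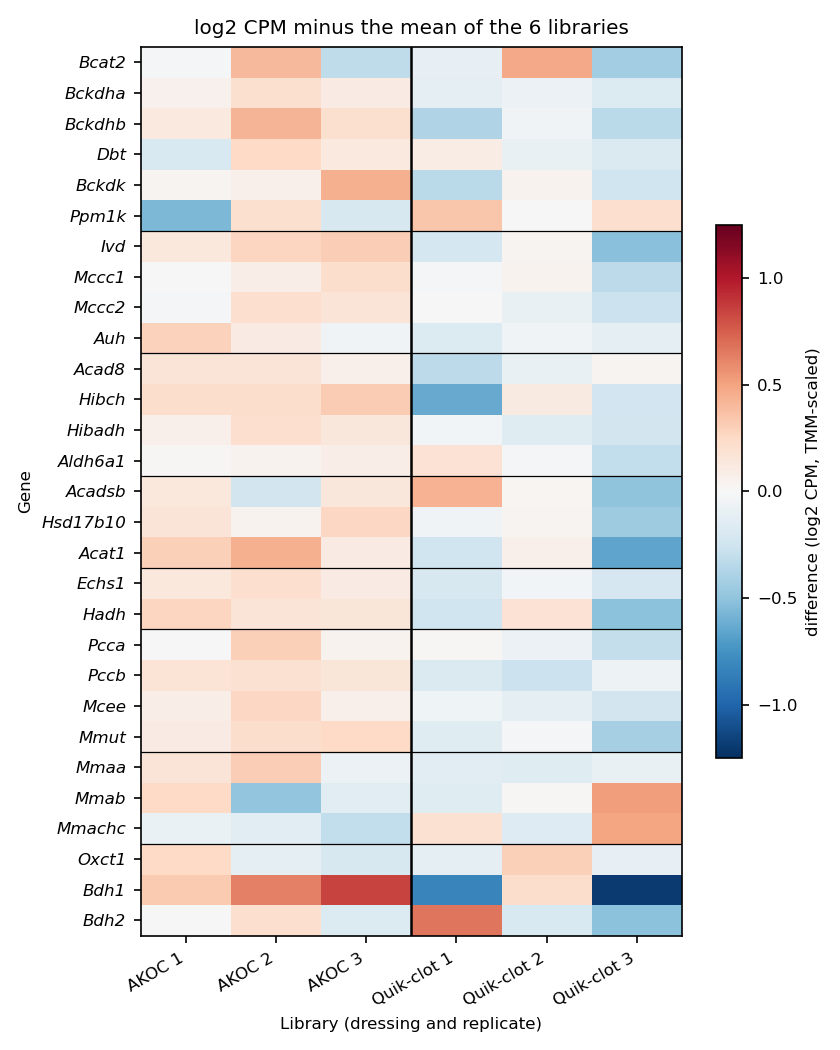
Log2 CPM (TMM-scaled) of the 29 tested genes minus each gene's mean over the 6 libraries, AKOC libraries left of Quik-clot libraries, lines between functional groups. Quik-clot replicate 3 is the lowest library for 17 genes, and Mmab and Mmachc are highest there.

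Across libraries, Quik-clot replicate 3 had the lowest level for 17 of the 29 genes, while it was lowest for 19.2% of all tested genes. With TMM factors, AKOC replicate 2 had the highest level for 11 of the 29, where it was highest for 13.4% of all tested genes. That rank depended on the scaling. With library totals Bckdhb stayed highest in AKOC replicate 2 (98.5 CPM). Hibadh (286 against 265 CPM), Echs1 (335 against 297 CPM) and Pccb (116 against 98.5 CPM) were then higher in AKOC replicate 1 than in AKOC replicate 2. The median difference from the mean of the 6 libraries, in log2 CPM, was 0.12, 0.21 and 0.11 in AKOC replicates 1, 2 and 3 and -0.12, -0.02 and -0.25 in Quik-clot replicates 1, 2 and 3. Quik-clot replicate 2 thus lay between the other Quik-clot libraries and the AKOC libraries. In bulk tissue, fewer hepatocytes and less RNA per hepatocyte cannot be told apart. Of 7 hepatocyte markers 5 had negative fold changes, and 1 was lower at an unadjusted p under 0.05. That marker, Hnf4a, had a log2 fold change of -0.41 ± 0.13 (edgeR unadjusted p = 0.0177, adjusted p = 0.334). Alb made up 84.1% to 90.9% of their summed level, and the other 6 summed to 8765 to 12299 CPM under AKOC and 9202 to 12330 CPM under Quik-clot. The 7 macrophage markers, with 7 of 7 fold changes negative, summed to 530 to 776 CPM under AKOC and 673 to 997 CPM under Quik-clot. Among these 7, 3 were lower at an unadjusted p under 0.05. The T and NK cell markers had 6 of 6 tested fold changes negative, 2 of them at an unadjusted p under 0.05, and summed to 6.28 to 8.68 CPM under AKOC and 8.84 to 24.8 CPM under Quik-clot. The 6 endothelial markers, with 4 negative and 2 lower at that threshold, summed to 337 to 372 CPM under AKOC and 380 to 424 CPM under Quik-clot. The 3 red cell markers, with 0 negative, summed to 553 to 1237 CPM under AKOC and 33.4 to 757 CPM under Quik-clot. Of 8 stellate cell and fibroblast markers, 4 had negative fold changes, and 2 were higher and 0 lower at that threshold. Their sums were 170 to 235 CPM under AKOC and 89.2 to 204 CPM under Quik-clot. Over all tested genes 5.69% were lower and 6.78% higher at that threshold. The part of these cell types in the differences was not tested.

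Per unit of length, the levels covered more than 3 orders of magnitude. On the deposited FPKM scale the highest mean over the 6 libraries was that of Aldh6a1 (265 FPKM), followed by Hsd17b10 (202), Echs1 (195), Hibadh (146) and Hadh (142). Then came Bckdhb, Ivd, Pccb, Acat1 and Bckdha, with means from 55.3 to 50.1 FPKM and overlapping ranges, so that their order is not settled by these libraries. Nor is that of Hsd17b10 (131 to 239 FPKM) and Echs1 (151 to 229), or of Hibadh (112 to 163) and Hadh (88.0 to 180), whose ranges overlapped. At the low end stood Mmaa (1.89), Oxct1 (0.796), Bcat2 (0.687) and Bcat1 (0.0694). The transaminase Bcat2 ranged from 0.443 to 0.983 FPKM, while the BCKDH subunits Bckdha, Bckdhb and Dbt had means of 50.1, 55.3 and 25.7 FPKM. Oxct1 ranged from 0.644 to 1.02 FPKM.

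**Figure D4:**
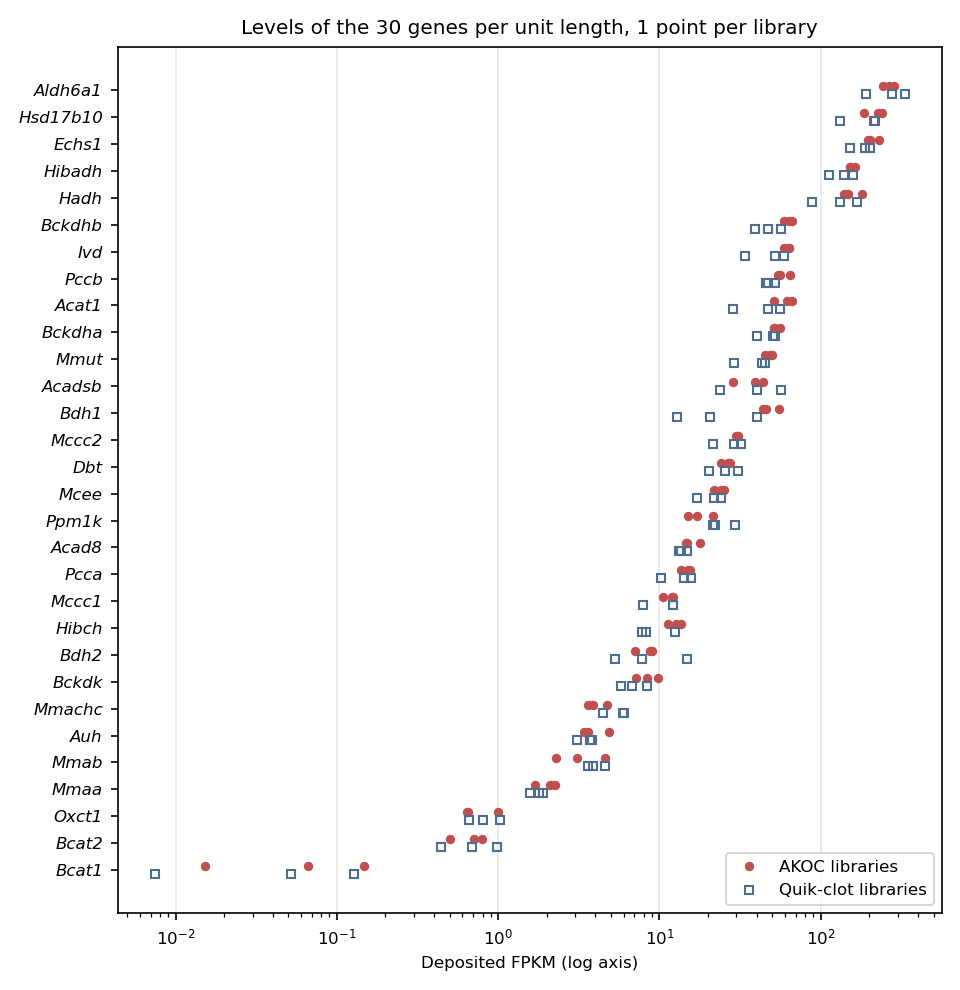
Deposited FPKM on a log axis for each of the 30 genes, ordered by mean, 1 point per library (filled circles AKOC, open squares Quik-clot). Aldh6a1 is highest at 265 FPKM on average, and Oxct1, Bcat2 and Bcat1 lie below all others.

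Ratios of partner genes within a library do not depend on the scaling between libraries. The FPKM ratio of Bckdha to Bckdhb was 0.871, 0.781 and 0.858 under AKOC and 1.099, 0.899 and 1.03 under Quik-clot. The dressings did not overlap, and the exact two-sided permutation test gave p = 0.1, the smallest that 3 against 3 allows (adjusted p = 0.6 over the 6 ratios compared). The ratio of the kinase Bckdk to the phosphatase Ppm1k was 0.552, 0.333 and 0.571 under AKOC and 0.229, 0.375 and 0.268 under Quik-clot. AKOC replicates 1 and 3 were above all Quik-clot libraries and AKOC replicate 2 was within them, and the mean log2 difference was 0.73 (exact permutation p = 0.2, adjusted p = 0.6).

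Subunits of the biotin carboxylases kept narrow ratios. Mccc1 to Mccc2 was 0.351 to 0.397 FPKM per FPKM under AKOC and 0.369 to 0.421 under Quik-clot (exact permutation p = 0.6, adjusted p = 0.7), and Pcca to Pccb was 0.234 to 0.285 under AKOC and 0.225 to 0.303 under Quik-clot (exact permutation p = 0.6, adjusted p = 0.7). In both enzymes the biotin-carrying subunit was the lower one in each library. Bcat1 to Bcat2, which rests on few counts, was 0.0299 to 0.186 under AKOC and 0.0108 to 0.130 under Quik-clot (exact permutation p = 0.7, adjusted p = 0.7).

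Of 43 tested neighbours of these pathways, edgeR called 0 at an adjusted p under 0.05 and gave 8 higher and 4 lower under AKOC at an unadjusted p under 0.05, where 6.78% and 5.69% of all tested genes were. With library totals these counts were 2 and 4, against 3.26% and 5.41%. DESeq2 called 1 neighbour, a share near the 2.02% it called over all genes. That gene, Sirt5, a mitochondrial deacylase, stood at 19.1, 19.1 and 21.5 CPM under AKOC and 14.8, 14.1 and 12.4 CPM under Quik-clot (edgeR log2 fold change 0.53 ± 0.12, adjusted p = 0.281; DESeq2 adjusted p = 0.0478). Besides Sirt5 and Dld, those with a higher level included Acads, the short-chain acyl-CoA dehydrogenase, Acss3, a mitochondrial propionyl-CoA synthetase, Acsf3, a malonyl-CoA synthetase, Abat, GABA transaminase, and Sucla2, a succinyl-CoA ligase subunit. Their log2 fold changes were 0.40 ± 0.09 for Acads, 0.37 ± 0.10 for Acss3, 0.67 ± 0.19 for Acsf3, 0.54 ± 0.19 for Abat and 0.31 ± 0.13 for Sucla2. With library totals the edgeR unadjusted p was 0.0436 for Acsf3 and 0.0497 for Sirt5, the 2 that stayed under 0.05. It was 0.0515 for Dld, 0.059 for Acads, 0.123 for Acss3, 0.088 for Abat and 0.227 for Sucla2.

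On the lower side were Mtr, the methylcobalamin-dependent methionine synthase, Ppara, the nuclear receptor that drives ketogenic genes, its target Cpt1a, and the amino acid transporter Slc43a1. Mtr stood at 21.0, 23.3 and 22.6 CPM under AKOC and 37.5, 26.9 and 32.5 CPM under Quik-clot, without overlap (-0.54 ± 0.14; edgeR unadjusted p = 0.00625, adjusted p = 0.298). Ppara had 58.1, 84.6 and 67.3 CPM under AKOC and 142, 91.3 and 93.1 CPM under Quik-clot (-0.63 ± 0.21; edgeR unadjusted p = 0.0204, adjusted p = 0.345). Both cobalamin-dependent enzymes of the rat thus had fold changes of opposite sign, Mmut at 0.38 and Mtr at -0.54, and Bdh1 at 1.09 stood beside Ppara at -0.63. Cpt1a and Slc43a1 had log2 fold changes of -0.77 ± 0.30 and -0.64 ± 0.27. With library totals the edgeR unadjusted p was 0.00994 for Cpt1a, 0.0265 for Slc43a1, 0.0088 for Mtr and 0.0118 for Ppara. Without Quik-clot replicate 3 it was 0.122, 0.172, 0.0185 and 0.0192 in that order. The mitochondrial carrier of branched-chain amino acids, Slc25a44, and the cobalamin trafficking gene Mmadhc had fold changes of -0.09 ± 0.11 and 0.03 ± 0.11.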

How the data were processed

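The deposited gene table holds raw read counts, and a further deposited table holds FPKM, which equal the count divided by gene length and library total with a largest relative error of 1.12e-06. Per the submitters' processing notes, fastp, HISAT2 and HTSeq were used with mRatBN7.2. Tool versions, annotation and strand setting: not given in the sources used here. Whether reads of overlapping antisense genes were kept apart is therefore unknown. The labels give the dressing and the replicate number.

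The filterByExpr function of edgeR (minimum count 10, minimum total 15) kept 13872 of 20104 genes, 29 of the 30 described here among them. Counts were scaled by TMM and tested in edgeR (version 4.0.16, R 4.3.3) by its two-sided quasi-likelihood test (legacy = FALSE) on the dressing alone. Benjamini-Hochberg adjustment ran over the whole table, at a threshold of 0.05. The SE is the log2 fold change divided by the square root of F. Log2 CPM used a prior count of 2. Since nothing names separate animals, p-values reflect only the scatter among these libraries, possibly technical. No pair of replicates agreed within sampling noise. Ratios of FPKM were compared by exact permutation.

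The genes, their groups, the neighbours and the marker lists were chosen with earlier results of these data known, so no list was tested as a set. All 30 genes are described, and neighbours are named where their unadjusted p was under 0.05 or where they fill a step between the 30. Some neighbours that this rule names, and 1 of the 6 ratios, are not reported here. Alternatives were DESeq2 1.42.0, limma-voom and limma-trend on log2 FPKM (limma 3.58.1; pseudocounts 1 and 0.1), median-of-ratios factors, library totals, 2 other filters, a fit with the replicate block, and fits that left out a library each. The legacy quasi-likelihood method and the comparison with mitochondrial genes were added after seeing the data. No coordinates of the authors' build are given; promoter windows are those of RefSeq for GRCr8, matched by symbol.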

Additional observations from a re-analysis of the deposited data

How the results depend on the processing

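The count of the 30 genes past the adjusted threshold was 0 under all alternatives run, at an adjusted p under 0.1 included. Over all genes it was 0 with edgeR, 280 with DESeq2 (186 higher, 94 lower) and 1 with the replicate block, and leaving out 1 library gave 0 to 18. Neighbours past the threshold were 0, and 1 with DESeq2. At an unadjusted p under 0.05, 11 genes were higher and 0 lower. Library totals only, log2(FPKM + 1) and log2(FPKM + 0.1) gave 3 each, 2 of the 11 higher (Bckdhb and Bdh1) and Ppm1k lower, where 3.26% to 3.53% of all tested genes were higher and 4.75% to 5.41% lower. The replicate block gave 7, all higher and all among the 11 (5.52% of all genes). Leaving out 1 library gave 4 to 13, and the share of all genes moved too. Without AKOC replicates 1, 2 and 3, the genes higher were 7, 3 and 6 (6.16%, 4.78% and 4.52% of all genes), with Ppm1k lower without replicate 2. Without Quik-clot replicates 1, 2 and 3, they were 6, 12 and 5 (5.16%, 9.8% and 5.27%), with Mmachc lower without replicate 2. Genes whose dressings did not overlap numbered 15 (9.53% of all tested genes had AKOC above), 3 with library totals only and 3 on the FPKM scale (4.95% for both). With 1 library left out, 15 to 20 genes had AKOC above and 0 to 2 had it below. Over all genes, 13% to 18.7% then had AKOC above and 12.8% to 17.3% below. Fewer libraries overlap less often, so these counts say nothing of stability. The median log2 fold change, 0.25, lay between 0.16 and 0.29 under the alternatives run. Log2 fold changes close to 0 changed sign. Bcat2 was -0.078 with library totals only, -0.024 with log2(FPKM + 1) and -0.031 with log2(FPKM + 0.1), Aldh6a1 -0.015 with library totals only, Acadsb 0.028 with limma-voom and 0.022 with the replicate block, and Bdh2 0.025 with the replicate block. When 1 library was left out, Bcat2 ran from -0.191 to 0.309, Aldh6a1 from -0.039 to 0.198, Acadsb from -0.227 to 0.236, Oxct1 from -0.197 to 0.104 and Bdh2 from -0.281 to 0.361. The cause of these changes was not tested. The deviations of same-numbered libraries correlated at -0.072, -0.082 and -0.20, which gave no sign of pairing by replicate number. They were taken from the mean of only 3 libraries per dressing, so they cannot settle whether the samples were paired.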
